A study of Mus musculus with 18 samples.

Results

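The genes described here code for the machinery that folds, modifies, exports and discards proteins in the endoplasmic reticulum (ER), and for the unfolded protein response that controls this machinery. They are 38 named genes, taken by symbol from a table of 54752 genes measured in mouse liver. The names were chosen by function: 9 luminal chaperones and co-chaperones, 2 lectin chaperones, 4 disulfide isomerases, 2 prolyl isomerases, 3 stress sensors, 2 transcription factors, 8 genes of ER-associated degradation, 7 genes of translocation and signal peptide removal, and the ER membrane protein Wfs1. The choice was made with earlier results of these data known. Counts set beside those of all genes are therefore a description and not a test. Each of the 38 symbols matched 1 gene, and all 38 passed the filter on low counts. Their functions are textbook knowledge and were not measured.

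All groups were male C57BL/6 mice that were 6 weeks old at the start, and 6 of 15 mice per group were sequenced in week 22. Control mice were injected with olive oil 2 times a week and given water by gavage. CCl4 mice were injected with carbon tetrachloride on the same schedule and given water by gavage, a treatment the labels describe as a liver cancer model. CCl4_PTH mice had the same CCl4 injections and PTH by gavage every day. The labels write both PTH and PZH, read here as 1 preparation, the Chinese patent medicine Pien Tze Huang. No group received PTH without CCl4. Long RNA of liver tissue was sequenced after removal of ribosomal RNA, and libraries are called by the numbers in their labels. The sources used here do not say whether a piece of liver held tumour.

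Proteins bound for secretion enter the ER through the Sec61 channel and are folded there by chaperones, disulfide isomerases and prolyl isomerases, while misfolded chains are returned to the cytosol and degraded. When unfolded chains build up, the sensors IRE1 (gene Ern1), ATF6 and PERK (gene Eif2ak3) raise the output of this machinery and slow translation. IRE1 acts by splicing the mRNA of Xbp1, and counts per gene do not separate the spliced from the unspliced form. Hepatocytes secrete most plasma proteins, and plasma cells and pancreatic acinar cells are also rich in this machinery. In bulk tissue, fewer cells of a type and less RNA per cell cannot be told apart.

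The promoters of these genes are where ATF6 and XBP1 are known to act, and sequences that hold the known response elements are shown for genes whose values follow. Sequences are from RefSeq (GRCm38.p6) and cover 250 bases before to 50 bases after each gene's start, and windows were found for 31 of the 38 genes. No window was held for Atf6, Derl1, Hyou1, Manf, Sec11c, Sec61a1 and Tram1. The ER stress response element (ERSE) was searched on both strands as CCAAT and CCACG with any 9 bases between, the shorter ERSE-II as ATTGG and CCACG with any 1 base between, and the element UPRE as TGACGTGG. Each line below gives the strand of the gene, 5′ to 3′, with the match in capitals.
Hspa5, chr2:34771840-34772089, plus strand: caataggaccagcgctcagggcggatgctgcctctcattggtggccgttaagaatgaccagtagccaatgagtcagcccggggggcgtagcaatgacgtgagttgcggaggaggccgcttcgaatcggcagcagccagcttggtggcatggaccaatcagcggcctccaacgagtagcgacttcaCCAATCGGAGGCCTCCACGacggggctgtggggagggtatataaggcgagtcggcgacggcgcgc
Hsp90b1, chr10:86705608-86705686, minus strand: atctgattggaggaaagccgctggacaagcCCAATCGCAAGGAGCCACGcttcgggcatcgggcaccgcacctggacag
Creld2, chr15:88819490-88819568, plus strand: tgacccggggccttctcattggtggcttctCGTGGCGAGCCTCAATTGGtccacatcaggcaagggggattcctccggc
Calr, chr8:84847045-84847123, minus strand: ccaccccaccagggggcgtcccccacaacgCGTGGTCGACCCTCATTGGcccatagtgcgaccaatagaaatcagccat
Syvn1, chr19:6046502-6046575, plus strand: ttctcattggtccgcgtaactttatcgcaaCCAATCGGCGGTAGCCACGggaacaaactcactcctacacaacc
Derl3, chr10:75893212-75893290, plus strand: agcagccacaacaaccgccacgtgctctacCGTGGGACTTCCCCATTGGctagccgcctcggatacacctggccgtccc
Herpud1, chr8:94386347-94386417, plus strand: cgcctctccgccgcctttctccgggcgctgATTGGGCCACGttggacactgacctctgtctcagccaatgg
In Creld2, Calr and Derl3 the element lies on the opposite strand, so its reverse complement is in capitals. An ERSE was found in 39 of 32851 windows of all genes (0.119%). Of the 31 members with a window (35 windows), 9 had an ERSE: Hspa5, Hsp90b1 (2 matches), Dnajc3, Creld2, Calr, Canx, Pdia6, Syvn1 and Derl3. In Hspa5 it lay 47 to 65 bases before the RefSeq start. The GENCODE M21 model of Hspa5, whose coordinates are given with its values, begins farther upstream, so the element lies inside that model. An ERSE-II was found in 12 windows (0.0365%), among them those of Herpud1 and Dnajb11, and the UPRE letters in 222 windows (0.676%), none of them a member's. A match describes letters only. The elements were already known from promoters of such genes, so these shares are not a test.

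Total counts ran from 67229863 to 118877267 per library, of which 30.6% to 55.8% fell on 357 ribosomal loci, and CCl4_PTH libraries were deeper than CCl4 libraries (76883416 to 118877267 and 67229863 to 83820995 counts, two-sided exact permutation test, p = 0.0108, adjusted p = 0.0271 over 20 tests). Levels are given in CPM, counts scaled to library size with TMM factors. A gene is called higher or lower where edgeR's quasi-likelihood test passed an adjusted p of 0.05 over the 21840 genes tested. Log2 fold changes are given with their standard error (SE), and n is 6 libraries in each group. Some libraries stood apart within their groups for these genes. Control 1 was the highest control library in 27 of the 38 genes. It also held pancreatic acinar transcripts: 9 of 10 acinar markers were at 0 in the other 5 control libraries, while control 1 had 7.21 CPM of Pnlip and 6.92 of Ctrb1. CCl4 5 was the highest of its group in 24 genes, CCl4_PTH 1 was the highest of its group in 22, and CCl4_PTH 6 in 15.

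After CCl4, most of the 38 genes rose, with the largest rises in the transcription factor Bhlha15 (24.7-fold), the prolyl isomerase Fkbp11 (4.87-fold) and the luminal chaperones Creld2, Sdf2l1, Manf and Hspa5 (2.85- to 3.39-fold). Of the 38 genes, 25 were called higher, 3 lower (Herpud1, Fkbp2 and Derl2) and 10 neither. Among all genes tested, 47.4% were called, 26.3% higher and 21.2% lower. The median log2 fold change was 0.53 over the 38 genes and 0.05 over all genes. The 6 CCl4 libraries lay above all 6 control libraries in 17 of the 38 genes and below them in 1, against 14.8% and 11.3% of all genes (26.1% in either direction).

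With PTH added to CCl4, 13 of the 38 genes were lower than with CCl4 alone and 0 were higher, where 4.95% and 7.1% of all genes were called (12.1% in either direction). The falls were 14.2-fold in Bhlha15, 4.22-fold in Derl3, 3.32-fold in Fkbp11, 2.84-fold in Creld2 and 2.01-fold in Hspa5. Of the members with higher values, 2 (Herpud1 and Derl2) passed edgeR's unadjusted threshold of 0.05. DESeq2 called 1 of them higher (Derl2) and voom 0. The median log2 fold change was -0.29 over the 38 genes and -0.03 over all genes. In 5 genes (Fkbp11, Bhlha15, Derl3, Sec61a1 and Wfs1) all CCl4_PTH libraries lay below all CCl4 libraries, and 0 of the 38 had the opposite pattern. Of all genes, 4.07% had ranges apart in this comparison, 1.87% lower and 2.2% higher.

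Compared with control, CCl4_PTH livers had 8 of the 38 genes higher and 2 lower, where 17.4% and 10.3% of all genes were called (27.7% in either direction). The median was 0.24 over the 38 genes and 0.04 over all genes, and 0 of the 38 had ranges apart, as did 14.5% of all genes (9.79% higher and 4.67% lower). The 3 comparisons share libraries, so a gene raised in CCl4 libraries enters the first comparison as a rise and the second as a fall. Of the 25 genes that rose after CCl4, 11 were called lower with PTH and not called against control, 2 (Manf and Fkbp11) were lower with PTH and still higher than control, and 12 were not called between the CCl4 groups.

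The split into higher and lower calls depended on the scaling. With library sizes alone, 33 genes were higher and 0 lower after CCl4, and 27 were higher and 0 lower in CCl4_PTH against control, and the all-gene median shifted to 0.63 and 0.51, from 0.05 and 0.04. Relative to the median of all genes, the members' median was 0.48 higher after CCl4 under both scalings. With PTH against CCl4 alone, 12 genes were lower and 0 higher with library sizes alone.

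**Figure D1:**
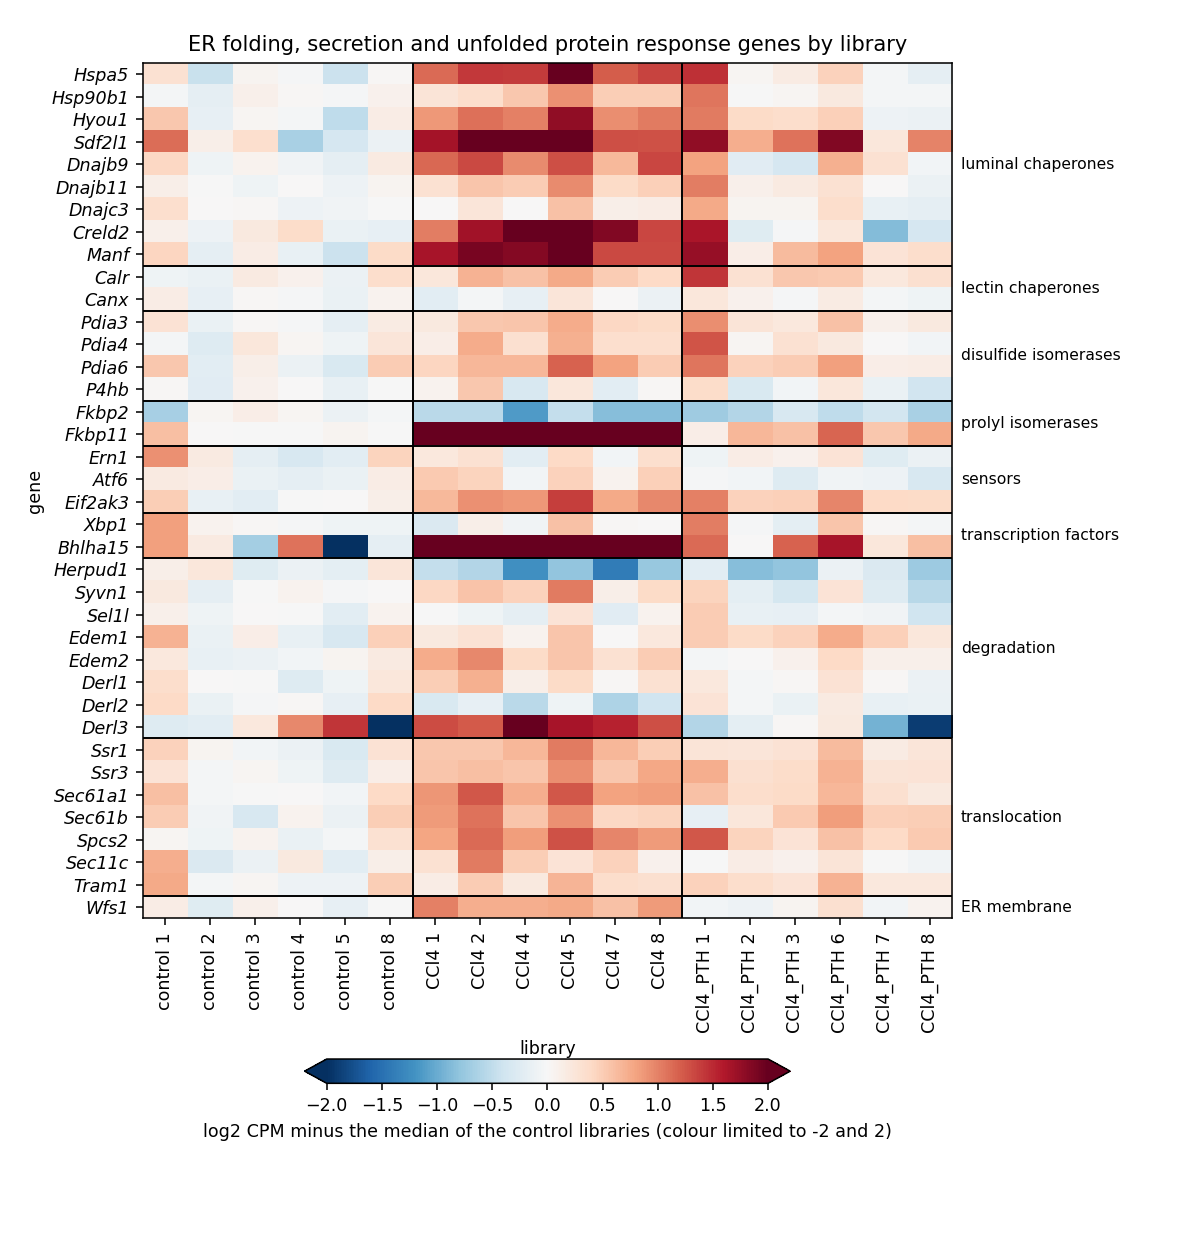
Heat map of the 38 genes (vertical axis, in order of role) in the 18 libraries (horizontal axis, vertical lines between control, CCl4 and CCl4_PTH), coloured by log2 CPM minus the median of the 6 control libraries, with colours limited at -2 and 2. The CCl4 columns are red in most chaperone and translocation genes, and Fkbp2 and Herpud1 are blue in every CCl4 library. The CCl4_PTH columns are paler, except for CCl4_PTH 1 in most chaperones and disulfide isomerases and CCl4_PTH 6 in most translocation genes.

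Among the luminal chaperones, after CCl4, 8 of 9 were higher, all 8 with ranges apart from control, and with PTH 5 of the 8 (Hspa5, Hyou1, Dnajb9, Creld2 and Manf) were lower. For this and the following roles, the shares of all genes were 26.3% higher and 21.2% lower after CCl4. With PTH against CCl4 they were 7.1% higher and 4.95% lower. Hspa5 codes for BiP, the main Hsp70 chaperone of the ER lumen, which also holds the 3 stress sensors inactive; its gene, ENSMUSG00000026864, lies at chr2:34771970-34777547 (GRCm38). Hspa5 ran from 156 to 261 CPM in control libraries (median 212), from 466 to 846 in CCl4 libraries (median 552) and from 187 to 581 in CCl4_PTH libraries (median 228). Every CCl4 library was above every control library, and 5 of the 6 CCl4_PTH libraries were at or below 292 CPM while CCl4_PTH 1 was within the CCl4 range. The log2 fold change was 1.51 (SE 0.25, adjusted p = 6.23e-05) after CCl4 and -1.01 (SE 0.24, adjusted p = 0.0127) with PTH against CCl4. Without CCl4_PTH 1 the second value was -1.32.

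Manf codes for a small ER-resident protein that is secreted on stress. Manf ran from 10.9 to 19.8 CPM in control libraries (median 14.8), from 36.7 to 59.8 in CCl4 libraries (median 49.6) and from 16.2 to 49.6 in CCl4_PTH libraries (median 20.8). The control and CCl4 libraries did not overlap, and 49.6 was the value of CCl4_PTH 1, with the other 5 at or below 25.8. Manf rose by 1.64 on the log2 scale after CCl4 (SE 0.24, adjusted p = 2.82e-05) and fell by 0.93 with PTH (SE 0.24, adjusted p = 0.0173). It was also higher in CCl4_PTH than in control livers (0.71, SE 0.24, adjusted p = 0.0336), a call lost when any of 6 single libraries was left out, with 0.38 as the value without CCl4_PTH 1.

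Dnajb9 codes for a co-chaperone that works with BiP. Dnajb9 ran from 20.3 to 30.8 CPM in control libraries (median 23.1), from 36.1 to 57.9 in CCl4 libraries (median 53.6) and from 18.3 to 40.0 in CCl4_PTH libraries (median 25.4). The CCl4 libraries lay above all control libraries, and the 2 highest CCl4_PTH libraries, 1 and 6, overlapped the lowest CCl4 library. Dnajb9 rose by 1.06 (SE 0.18, adjusted p = 0.000112) and fell by 0.87 (SE 0.18, adjusted p = 0.00648) on the log2 scale.

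Creld2, an ER protein with disulfide isomerase activity, had the largest rise and fall of the luminal group. Its log2 fold change was 1.76 after CCl4 (SE 0.34, adjusted p = 0.000392) and -1.50 with PTH (SE 0.34, adjusted p = 0.00921). Creld2 ran from 5.49 to 8.01 CPM in control libraries (median 6.20) and from 12.6 to 30.4 in CCl4 libraries (median 21.1), and the 2 groups did not overlap. CCl4_PTH 1 had 19.3 CPM and the other 5 CCl4_PTH libraries had 3.37 to 7.25, below every CCl4 library. Hyou1, an exchange factor for BiP, rose by 1.11 and fell by 0.76, and the fall was not called without CCl4_PTH 7 (-0.68, adjusted p = 0.0578). Sdf2l1, part of a BiP complex, rose by 1.68 after CCl4 and had a value of -0.65 with PTH that did not pass (adjusted p = 0.173). With PTH against CCl4, voom called Sdf2l1 lower (-0.74, adjusted p = 0.0446). Sdf2l1 was higher in CCl4_PTH than in control livers (1.03, adjusted p = 0.0192), a call lost without CCl4_PTH 6 (0.84).

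Hsp90b1, the ER Hsp90 chaperone GRP94, and the co-chaperone Dnajb11 rose by less, 0.53 and 0.54. The call for Hsp90b1 was lost without CCl4 5 (0.40) or control 2 (0.46). With PTH their values of -0.26 and -0.24 did not pass, and without CCl4_PTH 1 both were called lower (-0.47 and -0.42). With all libraries, voom called both lower (-0.42, adjusted p = 0.0193, and -0.38, adjusted p = 0.0247). Dnajc3, a co-chaperone that also restrains PERK, was called in none of the 3 comparisons (0.16, -0.01 and 0.15).

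**Figure D2:**
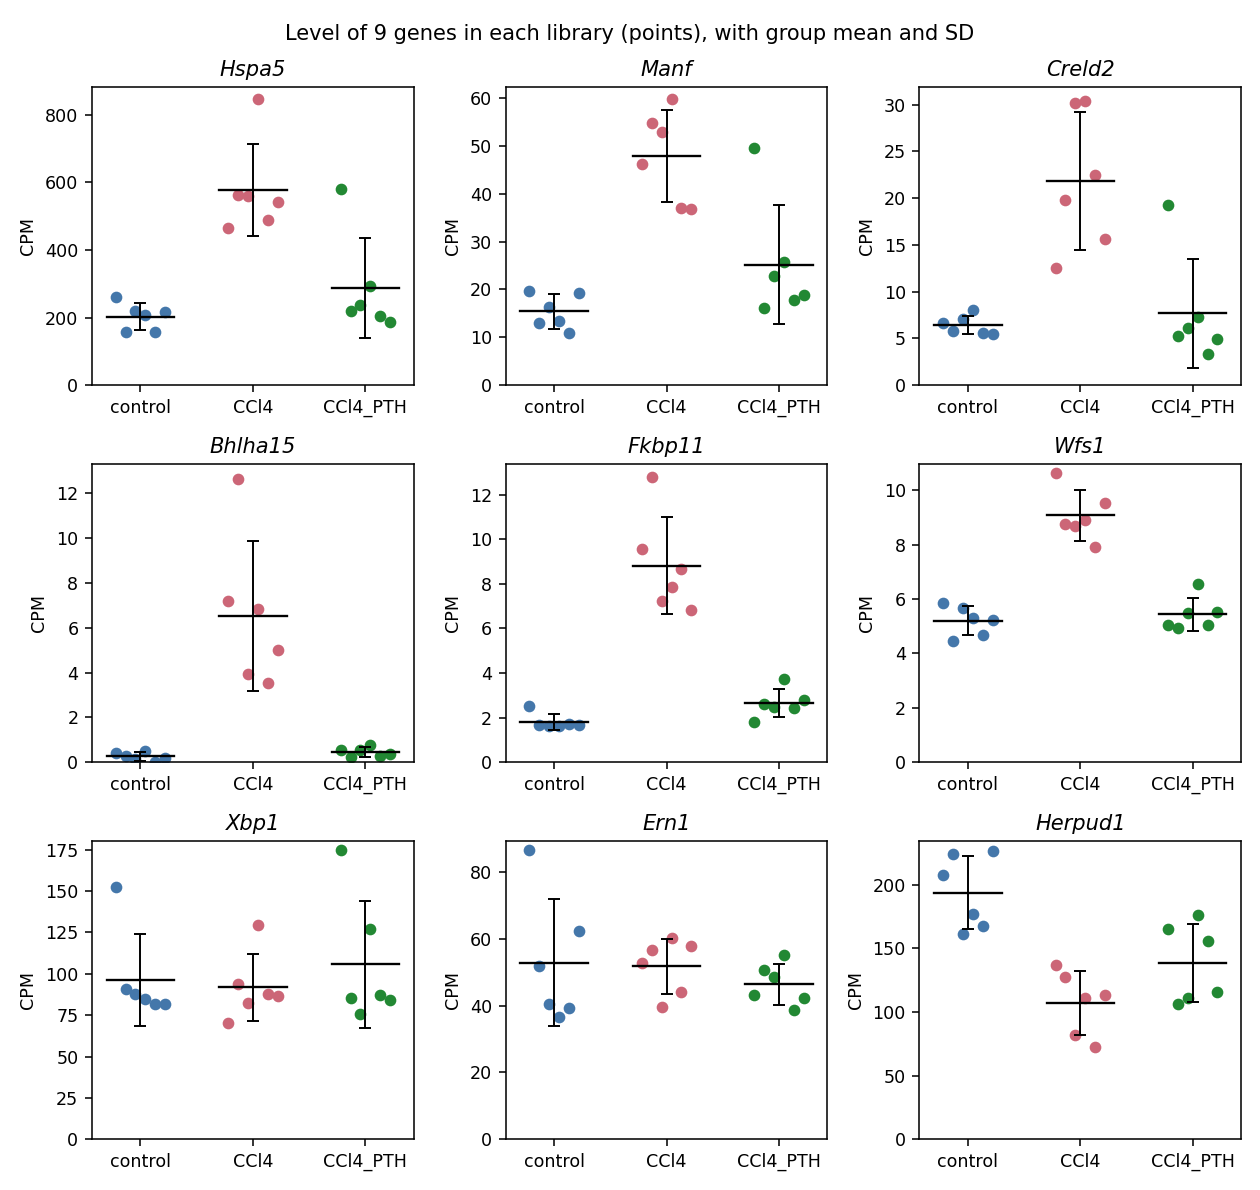
Level in CPM (vertical axis, from 0) of 9 genes in each library (points) by group (horizontal axis), with the group mean (line) and SD (bar) of 6 libraries. CCl4 libraries lie above control libraries in Hspa5, Manf, Creld2, Bhlha15, Fkbp11 and Wfs1, Herpud1 goes the other way, and Xbp1 and Ern1 overlap in all groups.

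Of the 2 lectin chaperones and 4 disulfide isomerases, 3 rose after CCl4. Calr, coding for the calcium-binding lectin chaperone calreticulin, was higher after CCl4 by 0.48 on the log2 scale (SE 0.18, adjusted p = 0.0339). That call was lost when any of 8 single libraries was left out (0.40 to 0.48). Calr was also higher in CCl4_PTH than in control livers by 0.57, a call that 3 single libraries could end, with 0.32 as the value without CCl4_PTH 1, which had 657 CPM while the other 5 had 283 to 355. Canx, coding for its membrane-bound partner calnexin, had values of -0.03, 0.10 and 0.07 in the 3 comparisons, none called, and was called higher after CCl4 with library sizes alone (0.53). Pdia3 (0.45) and Pdia6 (0.60), which form disulfide bonds in client proteins, were higher after CCl4. Pdia4 (0.41, adjusted p = 0.085) and P4hb (0.12, adjusted p = 0.547) did not pass. Pdia4 was called higher after CCl4 by voom (0.41, adjusted p = 0.018), in a fit of only the groups compared (0.41, adjusted p = 0.0171), without CCl4_PTH 1 (0.38, adjusted p = 0.0108) and with library sizes alone (0.99), and P4hb with library sizes alone (0.68). With PTH against CCl4 none of these 6 genes was called, with values from -0.16 to 0.10. Pdia3 was called higher in CCl4_PTH than in control livers (0.38, adjusted p = 0.049), and leaving out any of 13 single libraries ended that call.

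The prolyl isomerases moved in opposite directions. Fkbp11 (ENSMUSG00000003355, chr15:98724366-98728198), a membrane-anchored isomerase known from secretory cells, ran from 1.64 to 2.53 CPM in control libraries (median 1.65), from 6.82 to 12.8 in CCl4 libraries (median 8.26) and from 1.82 to 3.75 in CCl4_PTH libraries (median 2.56). The CCl4 libraries stood above all others, and the highest control value was that of control 1. Fkbp11 rose by 2.28 (SE 0.19, adjusted p = 5.41e-08) and then, with PTH, was lower by 3.32-fold (log2 -1.73, SE 0.18, adjusted p = 2.41e-05), both the smallest p of the 38 genes. Against control it was higher in CCl4_PTH livers by 0.55 (adjusted p = 0.0283), a call that 8 single libraries could end. Fkbp2, a luminal isomerase, was lower after CCl4 by 1.56-fold (log2 -0.64, SE 0.13, adjusted p = 0.000499) and in CCl4_PTH against control (-0.44, adjusted p = 0.0153). With library sizes alone Fkbp2 was called in neither (-0.048 and 0.066).

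Of the 3 sensors, 2 rose after CCl4. Eif2ak3, the gene of PERK, ran from 8.93 to 14.5 CPM in control libraries (median 10.3), from 16.2 to 26.8 in CCl4 libraries (median 19.1) and from 13.4 to 20.7 in CCl4_PTH libraries (median 14.2). The CCl4 libraries did not overlap the control libraries, and the CCl4_PTH libraries overlapped both groups. Eif2ak3 was higher than control in both CCl4 groups, by 0.88 (SE 0.15, adjusted p = 9.19e-05) and with PTH by 0.57 (SE 0.15, adjusted p = 0.00748), and the difference of -0.30 between the CCl4 groups did not pass (adjusted p = 0.194).

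Atf6 codes for the sensor that is cut in the Golgi to release a transcription factor. Atf6 ran from 52.1 to 66.8 CPM in control libraries (median 59.0), from 56.4 to 84.3 in CCl4 libraries (median 80.4) and from 46.9 to 57.9 in CCl4_PTH libraries (median 55.4). CCl4 4 and CCl4 7 were within the control range, and the other 4 CCl4 libraries were above it. Atf6 rose by 0.33 (SE 0.11, adjusted p = 0.0178), a call that leaving out any of 7 single libraries ended (0.25 to 0.28), and was lower with PTH than with CCl4 alone by 0.47 (log2 -0.47, SE 0.11, adjusted p = 0.0093). Ern1, the gene of IRE1, ran from 36.7 to 86.5 CPM in control libraries (median 46.1), from 39.5 to 60.3 in CCl4 libraries (median 54.6) and from 38.6 to 55.0 in CCl4_PTH libraries (median 46.0). Its groups overlapped, the highest value was that of control 1, and its log2 fold changes of -0.03 (SE 0.18) after CCl4 and -0.16 (SE 0.18) with PTH did not pass.

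Of the transcription factors, Xbp1 was not called and Bhlha15 changed most of all 38 genes. Xbp1 ran from 81.5 to 153 CPM in control libraries (median 86.3), from 70.5 to 130 in CCl4 libraries (median 87.1) and from 75.5 to 175 in CCl4_PTH libraries (median 86.2). The highest values of their groups were those of control 1, CCl4 5 and CCl4_PTH 1, and the group medians lay within 1 CPM of each other. Its log2 fold change was -0.07 (SE 0.21, adjusted p = 0.802) after CCl4 and 0.20 (SE 0.21, adjusted p = 0.586) with PTH. Bhlha15 (ENSMUSG00000052271, chr5:144190286-144194441) codes for MIST1, a factor known for scaling up the secretory apparatus of professional secretory cells. Bhlha15 ran from 0 to 0.521 CPM in control libraries (median 0.235), from 3.53 to 12.7 in CCl4 libraries (median 5.92) and from 0.234 to 0.779 in CCl4_PTH libraries (median 0.451). The CCl4 libraries were apart from both other groups. Bhlha15 rose by 4.62 (SE 0.54, adjusted p = 2.59e-06) and fell by 3.83 with PTH (SE 0.51, adjusted p = 0.00029), and its value of 0.80 in CCl4_PTH against control did not pass (adjusted p = 0.265).

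The genes of ER-associated degradation were mixed. After CCl4, 4 of 8 rose (Syvn1, Edem2, Derl1 and Derl3), 2 fell (Herpud1 and Derl2) and 2 were not called (Sel1l and Edem1). That is 50% higher and 25% lower, against 26.3% and 21.2% of all genes. Herpud1 (ENSMUSG00000031770, chr8:94386438-94395377), which organises the ubiquitin ligase complex at the ER membrane, ran from 161 to 226 CPM in control libraries, from 72.8 to 137 in CCl4 libraries and from 107 to 176 in CCl4_PTH libraries, with medians of 192, 112 and 136. It was the 1 gene whose CCl4 libraries all lay below the control libraries. Herpud1 fell by 0.85 on the log2 scale (SE 0.17, adjusted p = 0.000378) and was lower than control in CCl4_PTH livers (-0.49, adjusted p = 0.0362), while with library sizes alone neither value passed (-0.31 and -0.019). The call in CCl4_PTH against control was lost on leaving out any of 5 single libraries. Derl2, a derlin of the membrane channel, was lower after CCl4 (-0.44, adjusted p = 0.00589), except with library sizes alone, where its value was 0.10 and not called. Its value with PTH against CCl4 was 0.34 (adjusted p = 0.0699), and it was called higher without control 1, control 8 or CCl4 5 (0.36 to 0.41).

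Edem2 codes for a mannosidase-like protein that marks glycoproteins for disposal. Edem2 ran from 18.2 to 23.6 CPM in control libraries (median 20.3), from 25.1 to 39.7 in CCl4 libraries (median 29.3) and from 19.8 to 26.7 in CCl4_PTH libraries (median 21.6). The CCl4 libraries lay above all control libraries, and CCl4_PTH 6 was within the CCl4 range. Edem2 rose by 0.57 (SE 0.11, adjusted p = 0.00031) and fell by 0.48 (SE 0.11, adjusted p = 0.00918). Syvn1, the ubiquitin ligase HRD1, rose by 0.51 and fell by 0.58, and the rise was not called without CCl4 5 (0.35), nor the fall without CCl4 5, CCl4_PTH 3 or CCl4_PTH 7 (-0.55 to -0.45). Derl1 rose by 0.30 (adjusted p = 0.0466), a call ended by leaving out any of 15 single libraries, with the lowest value 0.19 without CCl4 2. In CCl4_PTH against control, edgeR did not call Edem1 (0.31, adjusted p = 0.142). Edem1 was called higher there by voom (0.44, adjusted p = 0.0132) and without control 1 (0.42, adjusted p = 0.0256).

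Derl3 (ENSMUSG00000009092, chr10:75893413-75895941), a derlin known from secretory tissues, ran from 0.232 to 2.76 CPM in control libraries (median 1.02), from 2.40 to 5.40 in CCl4 libraries (median 2.77) and from 0.255 to 1.16 in CCl4_PTH libraries (median 0.771). The highest control library, control 5, was within the CCl4 range, and all CCl4_PTH libraries were below all CCl4 libraries. Derl3 rose by 1.28 (SE 0.43, adjusted p = 0.0206), a call lost without control 1, control 2 or CCl4 4 (1.07 to 1.15), and fell by 2.08 with PTH (SE 0.44, adjusted p = 0.00663). In CCl4_PTH against control its value of -0.80 did not pass (adjusted p = 0.182), and it was called lower without control 8 (-1.05, adjusted p = 0.045).

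Translocation genes rose after CCl4 in 5 of 7 cases, and only Sec61a1 of the 7 was called lower with PTH by edgeR with all libraries. Sec61a1, the pore of the translocation channel, ran from 73.4 to 115 CPM in control libraries (median 76.0), from 126 to 180 in CCl4 libraries (median 138) and from 87.3 to 121 in CCl4_PTH libraries (median 98.2). The CCl4 libraries were above both other groups without overlap. Sec61a1 rose by 0.80 (SE 0.13, adjusted p = 8.37e-05) and fell by 0.55 (SE 0.13, adjusted p = 0.0136), the latter not called with library sizes alone (-0.63). Its exons share 549 of 6732 bases with an antisense gene, and the sources used here do not state the counting strand.

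Spcs2, a subunit of the signal peptidase, ran from 12.5 to 17.0 CPM in control libraries (median 13.7), from 23.7 to 33.3 in CCl4 libraries (median 25.9) and from 16.6 to 32.5 in CCl4_PTH libraries (median 19.2). Ssr3, a subunit of the translocon-associated complex, ran from 91.0 to 131 CPM in control libraries (median 109), from 159 to 208 in CCl4 libraries (median 163) and from 130 to 180 in CCl4_PTH libraries (median 139). In both genes the CCl4 libraries lay above all control libraries, and CCl4_PTH libraries lay between and overlapped both. Spcs2 was higher than control by 0.95 with CCl4 (SE 0.14, adjusted p = 2.11e-05) and by 0.58 with PTH added (SE 0.14, adjusted p = 0.0044). Ssr3 was higher by 0.65 (SE 0.12, adjusted p = 0.000142) and by 0.44 (SE 0.12, adjusted p = 0.00855). Between the CCl4 groups edgeR called neither (-0.37 and -0.21), but Spcs2 was called lower without CCl4_PTH 1 (-0.51, adjusted p = 0.0018). With all libraries, DESeq2 (-0.38, adjusted p = 0.0486) and voom (-0.51, adjusted p = 0.00324) also called Spcs2 lower. Ssr1 (0.59) and the channel subunit Sec61b (0.61) also rose after CCl4. With PTH against CCl4, edgeR did not call Ssr1 (-0.36, adjusted p = 0.0724). DESeq2 (-0.37, adjusted p = 0.0297) and a fit without control 1 and control 8 together (-0.34, adjusted p = 0.0437) called Ssr1 lower. Tram1, a translocating chain protein (0.16), and the signal peptidase subunit Sec11c (0.36, adjusted p = 0.0806) did not pass, and Sec11c was called higher without control 1 (0.48).

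Wfs1 (ENSMUSG00000039474, chr5:36966104-36989205), the ER membrane protein wolframin that takes part in calcium balance, had a coefficient of variation of at most 11.1% in every group. Wfs1 ran from 4.46 to 5.85 CPM in control libraries (median 5.27), from 7.91 to 10.6 in CCl4 libraries (median 8.83) and from 4.92 to 6.55 in CCl4_PTH libraries (median 5.27). The CCl4 libraries were apart from both other groups, whose ranges overlapped. Wfs1 rose by 0.80 (SE 0.10, adjusted p = 4.48e-06) and fell by 0.74 with PTH (SE 0.10, adjusted p = 0.000313).

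**Figure D3:**
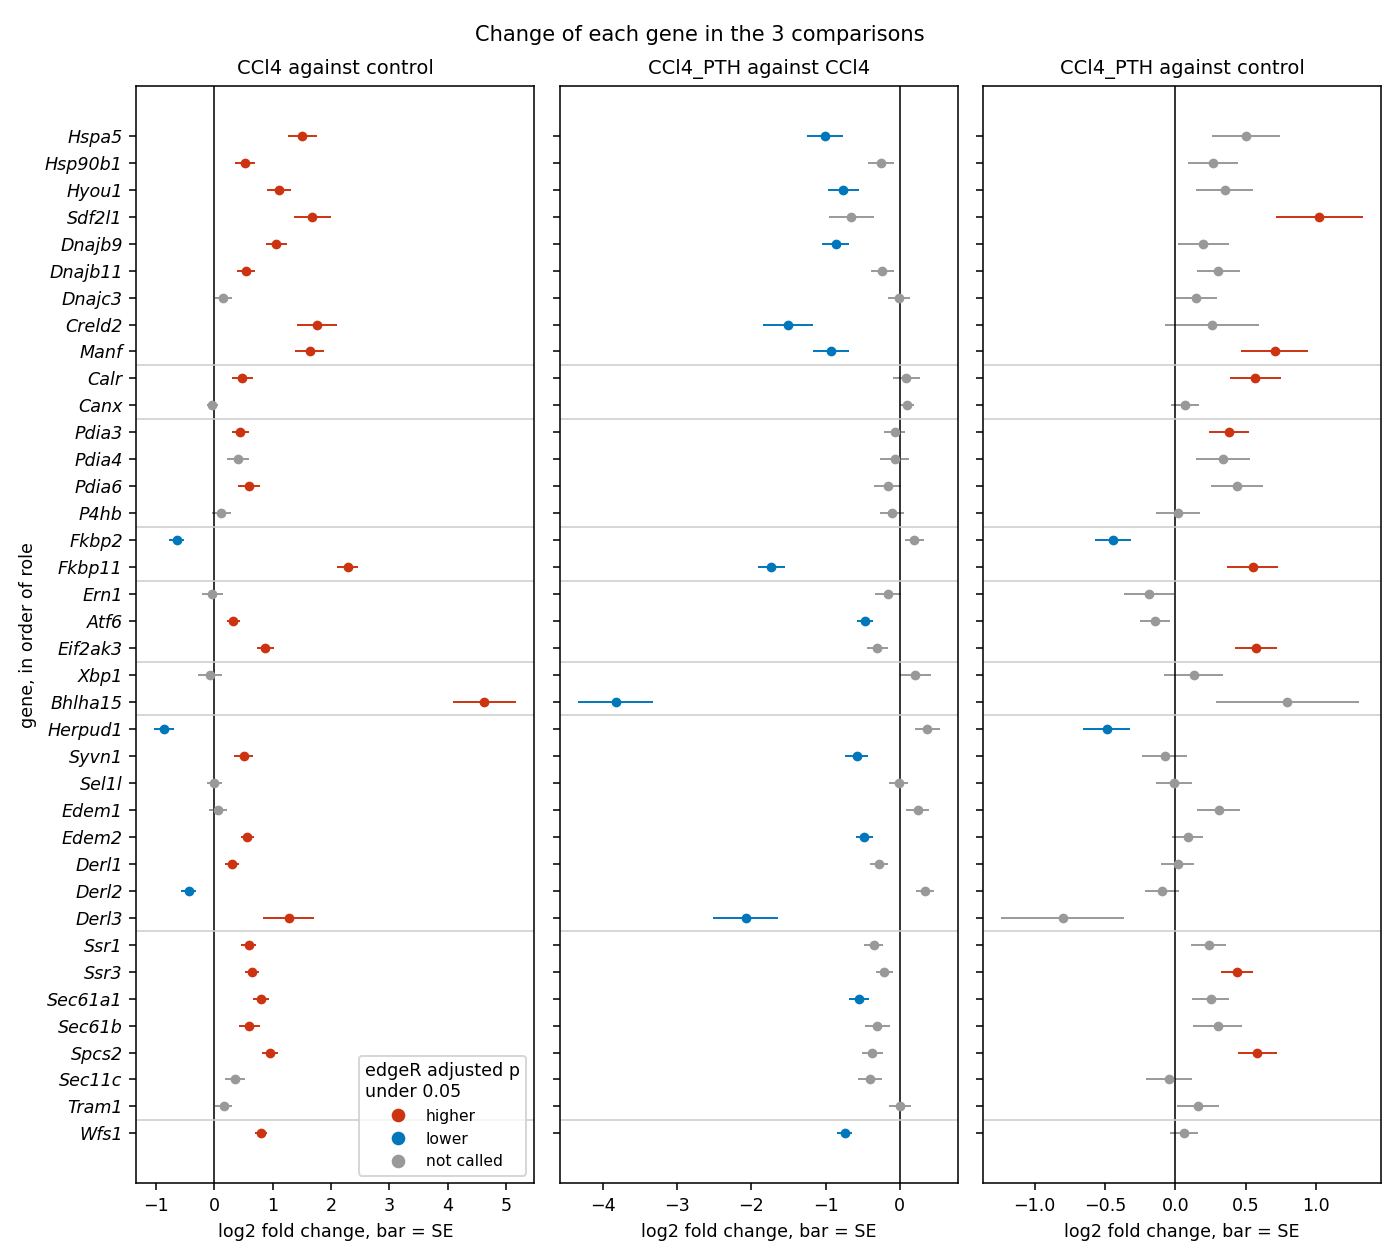
Log2 fold change (horizontal axis, scaled separately in each panel) with SE (bar) of each of the 38 genes (vertical axis, in order of role) in the 3 comparisons, coloured by edgeR call. Bhlha15 is farthest from 0 in the first and second panels (4.62 and -3.83), and most points of the third panel lie within 1 of 0.

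Genes with and without an ERSE near the start are set side by side as a description. Of the 9 with a match, 7 were higher after CCl4 and 2 (Dnajc3 and Canx) were not called, with a median log2 fold change of 0.53. Of the 22 with a window and no match, 13 were higher and 3 lower, with a median of 0.55. With PTH, 4 of the 9 and 5 of the 22 were lower. Fkbp11, Bhlha15 and Wfs1 had windows without an ERSE, and Herpud1, which fell, carries the ERSE-II shown above.

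Levels compared per kilobase of exon put P4hb first in all groups, with a median of 211 CPM per kb in control livers, 218 after CCl4 and 198 with PTH added. Calr, Hsp90b1 and Herpud1 followed in control livers, with 84.5, 83.9 and 82.4 CPM per kb, close to each other, and Hspa5 ranked number 6 with 50.1. In CCl4 livers Hspa5 ranked number 2 with 130 CPM per kb and Herpud1 number 7 with 48.1. Hspa5 was again number 6 in CCl4_PTH livers with 53.9. At the other end were Fkbp11, Derl3 and Bhlha15, with 0.611, 0.514 and 0.0671 CPM per kb in control livers and 3.05, 1.39 and 1.69 in CCl4 livers. Fkbp11 and Bhlha15, with the largest rises, thus had little RNA for their length.

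CCl4_PTH 1 differed from the other 5 libraries of its group by role. It was the highest of the 6 in 8 of 9 luminal chaperones, both lectin chaperones and all 4 disulfide isomerases, with a median ratio of 1.90 to the middle of the other 5 for luminal chaperones and 1.59 for disulfide isomerases. Hsp90b1 was 712 CPM there and 329 to 388 in the other 5, and Pdia4 was 292 against 117 to 150. In 10 of the 38 genes it was above every CCl4 library (Hsp90b1, Dnajb11, Dnajc3, Calr, Pdia3, Pdia4, Xbp1, Herpud1, Sel1l and Derl2). It was the lowest of its group in Fkbp11 and Fkbp2, and in Bhlha15, Derl3 and Wfs1 it lay among the others, with 0.536, 0.664 and 5.06 CPM. This library also had neutrophil transcripts, with 57.7 CPM of S100a8 against 1.53 to 3.50 in the other 5, and their part in the result was not tested. Without it, 16 genes were lower with PTH than with CCl4 alone, and 5 were higher than control. Without both control 1 and CCl4_PTH 1, a choice made after seeing the data, 27 genes were higher after CCl4, 18 were lower with PTH, and 8 were higher in CCl4_PTH than in control.

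**Figure D4:**
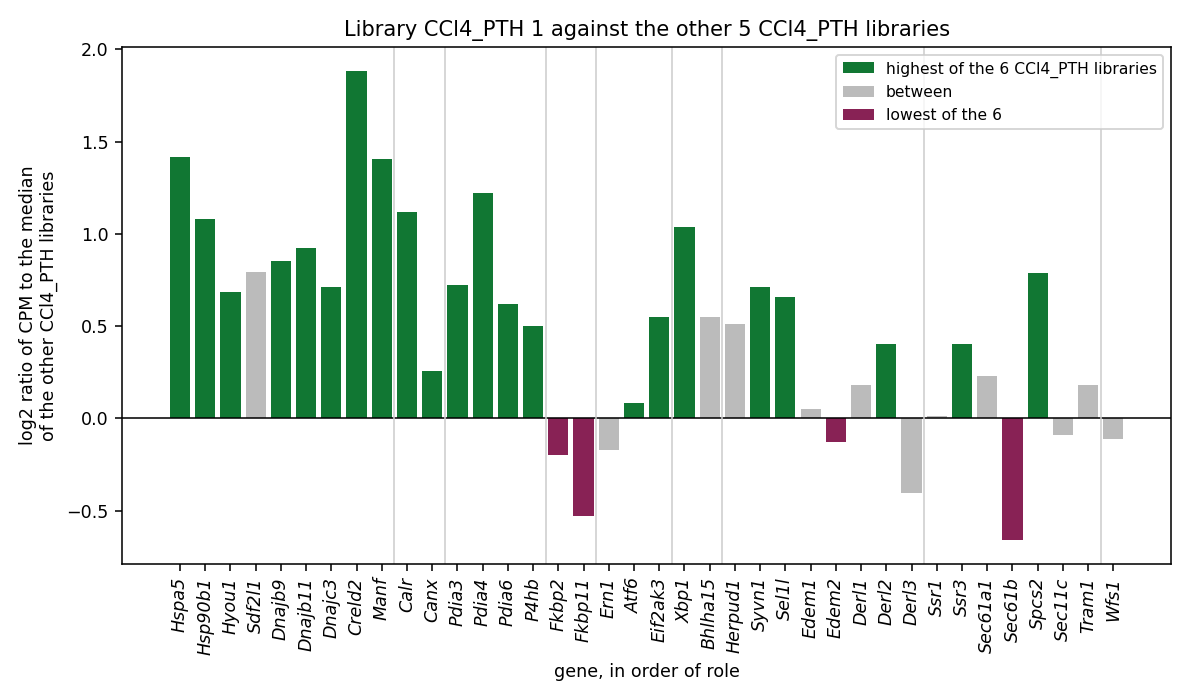
Log2 ratio (vertical axis) of the CPM in library CCl4_PTH 1 to the median of the other 5 CCl4_PTH libraries, for each of the 38 genes (horizontal axis, in order of role, grey lines between roles). Bars are tall in the chaperones and disulfide isomerases, shorter in most translocation genes, and below 0 in 8 genes, with Fkbp2, Fkbp11, Derl3 and Sec61b among them.

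Markers of other cells moved with the treatments as well. All 14 tested B cell and plasma cell markers were higher after CCl4, and by edgeR 0 of 14 were called with PTH against CCl4, where 2 were higher and 1 lower at an unadjusted p under 0.05 (summed CPM 12.9 to 45.5 in control libraries, 48.9 to 122 with CCl4 and 62.5 to 344 with PTH added). Fkbp11, Bhlha15 and Derl3 were lower in all CCl4_PTH than in all CCl4 libraries, and the part of B cells and plasma cells in this was not tested. Macrophage markers were higher after CCl4 in 9 of 10 cases, and with PTH 4 of 10 were lower and 1 higher, or 7 lower and 1 higher at an unadjusted p under 0.05 (summed CPM 142 to 217, 449 to 1105 and 298 to 653). Hepatocyte markers were lower after CCl4 in 5 of 8 cases, and with PTH 1 of 8 was higher, or 4 at an unadjusted p under 0.05 (summed CPM 43094 to 58280, 16396 to 45729 and 33504 to 44626). After CCl4, 8 of 11 stellate cell, 6 of 6 cholangiocyte and 5 of 5 tested neutrophil markers were also higher, and of 5 endothelial markers 2 were higher and 2 lower. With PTH against CCl4, edgeR called 1 endothelial marker higher and no stellate cell, cholangiocyte or neutrophil marker. At an unadjusted p under 0.05, 2 endothelial markers were higher and 1 stellate cell marker was lower. Summed CPM passed for none of these cell types with PTH against CCl4 by two-sided exact permutation test (20 tests). The smallest p was 0.117 for macrophages (adjusted p = 0.213), and hepatocytes had 0.305 (adjusted p = 0.381). After CCl4, by the same test, the sum was higher for macrophages and for B cells and plasma cells (both adjusted p = 0.00866). It was lower for hepatocytes (adjusted p = 0.0124). The part of these cells in the results was not tested. Summed CPM of the 10 acinar markers was 3.35 to 48.4 in control, 0.949 to 3.81 with CCl4 and 1.27 to 3.03 with PTH added. The 1 that passed the filter was lower after CCl4 (log2 fold change -1.54) and not called with PTH against CCl4 (0.17). Of the 10, Cpa1, Cpb1, Prss2, Cela3b, Pnlip and Amy2b were at 0 in all CCl4 and CCl4_PTH libraries.

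Other genes of the same pathways were taken from lists by function. Of all genes tested, 26.3% were higher and 21.2% lower after CCl4, and 7.1% were higher and 4.95% lower with PTH against CCl4. The PERK branch and the integrated stress response included 14 genes. After CCl4, 8 rose (57.1%) and 1 fell (7.14%), and with PTH 6 were lower (42.9%) and 1 higher (7.14%). Ddit3, the stress factor CHOP, had medians of 2.45 CPM in control, 9.37 with CCl4 and 2.97 with PTH added, and all CCl4 libraries (6.97 to 11.6) lay above all others. It rose by 1.92 (SE 0.15, adjusted p = 2.85e-08) and fell by 1.56 (SE 0.15, adjusted p = 8.41e-06). Nupr1, a stress-induced chromatin protein, rose by 5.07 and fell by 2.74, and stayed higher than control with PTH (2.33, adjusted p = 1.99e-05). Further translocation, signal peptidase and oligosaccharyltransferase genes rose in 18 of 30 cases (60%) with 1 fall (3.33%). With PTH 8 were lower (26.7%) and 1 higher (3.33%). Among them Srprb, part of the signal recognition particle receptor, rose by 0.97 and fell by 0.80, Ssr2 rose by 0.46 and fell by 0.54, and Ostc, an oligosaccharyltransferase subunit, rose by 1.04.

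Other folding genes were mixed, with 10 of 29 higher (34.5%) and 6 lower (20.7%) after CCl4. With PTH 1 was lower (3.45%) and 2 were higher (6.9%). Fkbp10, a collagen chaperone, rose by 2.29 and had a value of -0.15 with PTH (adjusted p = 0.791). Dnajc10, an ER disulfide reductase, rose by 1.11. Erp29 rose by 0.50 and fell by 0.32, and Tmx2 fell by 0.44 after CCl4 and was higher with PTH by 0.40. Of 21 other degradation genes, 8 were lower and 3 higher after CCl4 (38.1% and 14.3%, against 21.2% and 26.3% of all genes). Their median log2 fold change was -0.10, and with PTH 4 were higher (19.0%) and 2 lower (9.52%). The ubiquitin ligase gene Rnf5 fell by 0.74, Svip by 0.89 and Fam8a1 by 0.59, and with PTH Svip (0.86) and Fam8a1 (0.55) were higher than with CCl4 alone. ER to Golgi transport genes had 9 of 24 higher (37.5%) and 5 lower (20.8%) after CCl4, and 3 in each direction with PTH (12.5% each). There the coat subunit Sec23b rose by 0.88 and fell by 0.59, Sec24d rose by 0.66 and fell by 0.49, and the coat GTPase gene Sar1b fell by 0.93 and was higher with PTH by 0.60. A list of 8 genes held the CREB3 family, the site proteases and Scap, which is neither. Of these 8, 3 rose (37.5%) and 4 fell (50%) after CCl4, and with PTH 2 were higher (25%) and 1 lower (12.5%). Creb3l1 rose by 2.64 and fell by 1.03. Scap fell by 1.27 and was higher with PTH by 0.70, and the protease gene Mbtps1, which cuts ATF6, fell by 0.31 and was higher with PTH by 0.21.

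**Figure D5:**
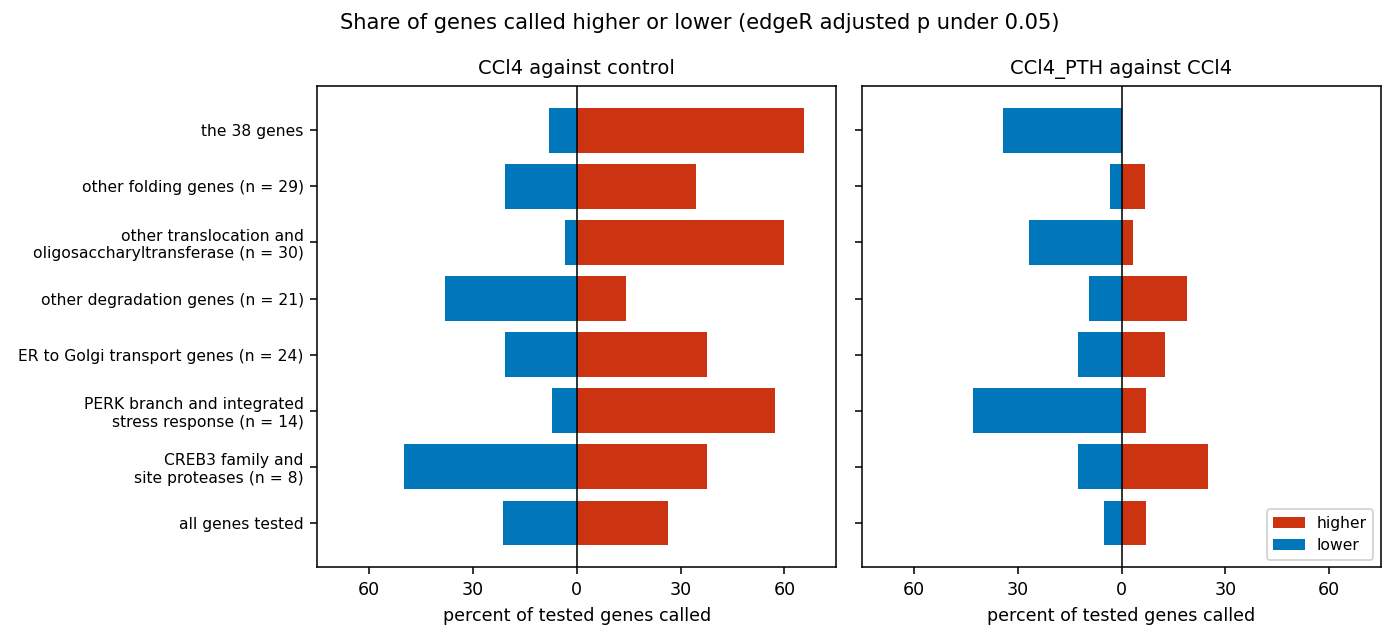
Percent of the tested genes of each list (vertical axis) called higher (right, red) or lower (left, blue) by edgeR, for CCl4 against control and CCl4_PTH against CCl4. The 38 genes have 25 higher and 3 lower in the first panel and 0 higher and 13 lower in the second, and all genes tested have 26.3% higher and 21.2% lower in the first.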

How the data were processed

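The deposited table held estimated counts per gene in whole numbers, not scaled to depth. Per the submitters' processing notes, the tools were Bowtie2 2.5.1, HISAT2 2.2.1, StringTie 2.1.5, FastQC 0.11.9 and cutadapt 4.2, on the build GRCm38. The counting tool, annotation and strand setting are not given in the sources used here, so genes that overlap others may share their reads (among the members Hsp90b1, Manf, Eif2ak3, Derl2, Sec61a1, Syvn1, Dnajb9, Pdia3, Pdia4 and Pdia6). Rounding changed 0 of the deposited counts. In R 4.3.3, edgeR 4.0.16 filtered genes (filterByExpr, minimum count 10), scaled them with TMM and fitted all 18 libraries of 3 groups in 1 quasi-likelihood model (robust). P-values were adjusted by Benjamini-Hochberg over 21840 genes, with a threshold of 0.05. SEs were derived from the F statistic (absolute log2 fold change over its square root). Coordinates are from GENCODE M21. Summed marker levels and depth were compared by two-sided exact permutation tests. limma 3.58.1 (voom with quality weights) and DESeq2 1.42.0 were alternatives, beside library sizes alone, no filter, removal of ribosomal loci, only the groups compared, a replicate block and leaving out libraries. Leaving out control 1 with CCl4_PTH 1 was chosen after seeing the data. Each library is 1 mouse, per the labels, and edgeR's p-values set group differences against the spread between these mice. That spread was estimated over the 3 groups, with information shared across genes.

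Values by sample are given for Hspa5, Xbp1, Ern1, Atf6 and Eif2ak3, the 10 members with the smallest p in CCl4 against control the 6 with the smallest p in CCl4_PTH against CCl4, and members with a mean under 1 CPM. Of each list of other pathway genes, the 2 with the smallest p in each of these comparisons are named. Creld2 and Herpud1 were added by sample after their values were seen. The members and lists were chosen with earlier results of these data known.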

Additional observations from a re-analysis of the deposited data

Results flagged for a closer look

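Of 114 groups of 6 libraries (38 genes in 3 groups), 15 held a library far from the other 5 on the log2 scale. The rule flags about 1 in 20 groups of independent normal values. The 38 genes share the same libraries and are not independent, so the count cannot be compared with that rate. In CCl4_PTH 1 these were Hsp90b1 (712 CPM, against 329 to 388 in the others of its group), Calr (657 against 283 to 355), Pdia4 (292 against 117 to 150), Dnajb11 (62.4 against 28.4 to 37.9) and Spcs2 (32.5 against 16.6 to 20.7). In control 1 they were Xbp1 (153 against 81.5 to 90.6), Dnajc3 (131 against 97.5 to 106), Fkbp11 (2.53 against 1.64 to 1.73) and, on the low side, Fkbp2 (13.4 against 19.6 to 23.4). In CCl4 5 they were Hspa5 (846 against 466 to 562), Hyou1 (248 against 133 to 156) and Ssr1 (108 against 74.3 to 83.7). CCl4_PTH 6 stood apart in Edem2 (26.7 against 19.8 to 21.9) and Ssr1 (81.7 against 59.3 to 64.1), and CCl4 4 in Derl3 (5.40 against 2.40 to 3.22).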

How the results depend on the processing

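Of 51 calls among the 114 member values, 25 kept their side and direction under every alternative run, and 37 did so apart from library sizes alone and the replicate block. Numbers in the labels are not stated to pair libraries. Of 13 same-numbered pairs, 0 had deviations correlated over 0.1, and 1 of 13 correlated best with its own number. The correlations ran from -0.209 to -0.109 for CCl4_PTH with CCl4, -0.0760 to 0.0138 for CCl4 with control and -0.0211 to 0.0833 for CCl4_PTH with control. Such values cannot show whether same-numbered mice shared a day or batch. With the replicate block, CCl4_PTH against CCl4 had 4 members lower (all genes 42 higher and 42 lower), and CCl4_PTH against control had 3 members higher and 1 lower (all genes 2501 and 842). With library sizes alone, all genes higher and lower numbered 11275 and 1061 after CCl4, 476 and 621 with PTH against CCl4, and 9559 and 353 with PTH against control; members lower were 0 in the first and the third, members higher 27 in the third, and the members' medians 1.10 and 0.69. Canx (0.53) and Derl2 (0.10) after CCl4, and Fkbp2 (0.066) and Sel1l (0.46) with PTH against control, then changed sign. In CCl4_PTH against CCl4, DESeq2 called 1798 genes lower and 1 member higher, voom 1995 genes lower, a fit of only the groups compared 709, and leaving out control 1 and CCl4_PTH 1 together 1916. In CCl4_PTH against control, voom called 13 members higher, and no filter on low counts left 1 lower. Without control 1 and control 8 together, 1 member was higher in CCl4_PTH against CCl4 and 14 in CCl4_PTH against control. Leaving out 1 library at a time, members higher after CCl4 ranged from 20 to 25. With PTH against CCl4, members lower ranged from 11 to 16, members higher from 0 to 1, and all genes from 934 to 2286 higher and 575 to 1568 lower. With PTH against control, members higher ranged from 4 to 10, members lower from 1 to 2 and the median from 0.08 to 0.28. The cause was not tested. Sign changes of 138 of 3078 recomputed values passed in neither fit and were not counted as changes.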
